A study of Mus musculus with 18 samples.

Results

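The genes described here encode the subunits of the proteasome, its activators and inhibitors, and the chaperones that assemble it. They were chosen by name, as the protein-coding genes of the deposited tables whose symbol starts with Psma, Psmb, Psmc, Psmd, Psme, Psmf or Psmg. The rule found 51 genes among 27830 listed in at least 1 of the tables. The table of naive cells lists 50 of them, and the tables of effector and memory cells list all 51. By role there were 8 genes of alpha subunits, 7 of constitutive beta subunits, 3 of inducible beta subunits and 1 of the thymus-specific beta subunit. The regulatory particle had 6 ATPase and 11 non-ATPase genes. A further 7 genes were grouped as activators or inhibitors and 8 as assembly factors. Psmc3ip and Psme3ip1 match the rule by name but encode no subunit: the product of Psmc3ip takes part in meiotic recombination, and that of Psme3ip1 binds an activator. They stay in the counts, under the assembly factors and the activators.

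RNA was measured in CD8+ T cells from mice 8 weeks of age, in 6 groups of 3 libraries. The groups were cKO effector, cKO memory and cKO naive cells, and WT effector, WT memory and WT naive cells. The cKO genotype is a conditional knockout of GRP75, the mitochondrial chaperone encoded by Hspa9; the driver of its deletion and the deleted exons are not given in the labels. The naive cells came from lymph nodes and spleen, and the effector and memory cells were differentiated in vitro from naive cells, with no treatment recorded for any group. A difference between subsets therefore cannot be told apart from a difference in culture. Nothing in the labels says whether replicates were separate mice, so p-values measure the spread between these libraries, which may be technical.

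The proteasome is the main protease for proteins tagged with ubiquitin. Its core is a barrel in which rings of alpha subunits gate the entrance and rings of beta subunits hold the catalytic sites, carried by Psmb5, Psmb6 and Psmb7. In lymphocytes and in cells exposed to interferon gamma, Psmb8, Psmb9 and Psmb10 can take their places and form the immunoproteasome, which produces many of the peptides shown on MHC class I. The regulatory particle, built from ATPases (Psmc genes) and non-ATPases (Psmd genes), recognises, unfolds and feeds in the substrate. Psme1 and Psme2 encode the cytoplasmic PA28 activator, which is also inducible by interferon gamma.

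Library depth ranged from 14771251 to 18049774 recovered reads. Hspa9 itself went against the genotype labels. It had 6438 ± 284 normalised reads in naive libraries labelled cKO, against 3992 ± 176 in naive WT libraries (SD, n = 3 each, as in all means here). In effector cells it had 2339.9 ± 151 normalised reads in libraries labelled cKO, against 2093 ± 79.7 in WT libraries. In memory cells it had 5637 ± 160.02 normalised reads in libraries labelled cKO, against 4041 ± 119 in WT libraries. Gene-level reads need not show a deletion of single exons, and every direction of a genotype effect below is drawn between libraries so labelled. The naive groups also differed in sex markers: Xist had 4428 ± 279 normalised reads in naive libraries labelled cKO, against 16393 ± 1514 in naive WT libraries, and Ddx3y had 2907 ± 143, against 0 in each of the naive WT libraries. The part of sex in the naive genotype effect cannot be told apart from that of genotype. In libraries labelled cKO, Xist had 12579 ± 240 normalised reads in effector cells and 14267 ± 3662 in memory cells. Ddx3y was listed for neither of these subsets. A difference of effector or memory cells from naive cells labelled cKO thus cannot be told apart from a difference in sex either. All 9 CD8 T cell markers had reads in every group, with summed CPM of 5794 to 5857 in naive libraries labelled cKO and 6485 to 6764 in naive WT libraries. Effector sums were 6146 to 6359 and 6871 to 7024, and memory sums 4811 to 5775 and 5905 to 6435, in that order. In naive, effector and memory libraries labelled cKO, 6, 3 and 3 of the 9 were called lower and 0, 1 and 0 higher (limma). Of 5 naive T cell markers 4, 2 and 5 were lower and 1, 2 and 0 higher. At the same adjusted p under 0.05, 11.9%, 9.37% and 7.00% of all tested genes were lower and 12.9%, 10.7% and 12.1% higher. The sums of the 5 effector T cell markers were 7208 to 8046 CPM in effector libraries labelled cKO, against 44.5 to 46.5 in naive libraries labelled cKO. In effector WT libraries those sums were 6786 to 7279 CPM, against 67.9 to 73.8 in naive WT libraries. In such bulk samples fewer cells of a type and less RNA per cell cannot be told apart.

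Per unit of gene length, the PA28 genes and the inducible genes Psmb10 and Psmb8 were among the most abundant members in naive cells, and the assembly gene Psmg3 was the lowest tested. Levels between genes are given in TPM, computed here from recovered reads and the gene lengths of the deposited tables. Psme1 averaged 394 ± 18.8 TPM in naive libraries labelled cKO and 442 ± 9.13 TPM in naive WT libraries. Its partner Psme2 averaged 265 ± 37.1 TPM and 322 ± 39.8 TPM in the same groups. Psme2b, a near-identical single-exon copy of Psme2, was listed at 412 ± 82.5 TPM in naive libraries labelled cKO and 421 ± 93.0 TPM in naive WT libraries; the reads of the 2 copies may be split by the counting, so both levels are uncertain. The alpha subunit gene Psma6 averaged 251 ± 24.0 and 222 ± 17.8 TPM, and Psma3 60.6 ± 1.39 and 57.8 ± 4.78 TPM, the highest and lowest of the 7 tested alpha genes in naive WT cells. Psmb10 averaged 188 ± 4.97 TPM and Psmb8 189 ± 6.76 TPM in naive libraries labelled cKO, against 225 ± 21.0 and 217 ± 4.96 TPM in naive WT libraries; those ranges of Psmb10 and Psmb8 lie close together in each group. The third inducible gene, Psmb9, averaged 132 ± 6.39 TPM in naive libraries labelled cKO and 128 ± 10.2 TPM in naive WT libraries, below Psmb8 and Psmb10. In the same order, the constitutive catalytic genes averaged 149 ± 2.41 and 143 ± 9.79 TPM for Psmb5, 102 ± 6.26 and 96.2 ± 5.95 TPM for Psmb6 and 43.3 ± 1.81 and 40.7 ± 2.81 TPM for Psmb7. These values compare genes within a group, and their direction between genotypes depended on how libraries were scaled. In normalised reads, naive means of libraries labelled cKO over WT were 0.948 for Psma6, 0.880 for Psma3 and 0.866 for Psmb9. Those of Psmb5, Psmb6 and Psmb7 were 0.871, 0.895 and 0.894.

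The lowest tested member was Psmg3, an assembly chaperone of the alpha ring, at 5.06 ± 0.485 TPM in naive libraries labelled cKO and 5.55 ± 0.567 TPM in naive WT libraries. Psmc3ip and Psmd9, a chaperone of the regulatory particle's base, followed at 6.07 ± 0.502 and 9.38 ± 0.549 TPM in naive WT libraries. Psma8, the testis alpha subunit, had between 0 and 3 reads in every library, and Psmb11, the thymoproteasome subunit of cortical thymus epithelium, was near 0 in the tables that list it. These 2 members did not reach 10 normalised reads in 3 libraries and were not tested, which left 49 in every comparison. All members together took 0.496% of reads in effector libraries labelled cKO and 0.486% in effector WT libraries. The share was 0.421% in memory libraries labelled cKO and 0.404% in memory WT libraries. In naive cells it was 0.390% in libraries labelled cKO and 0.414% in WT libraries. The summed TPM of all members had the opposite order in naive cells, at 5537 ± 143 in libraries labelled cKO and 5449 ± 229 in WT libraries. In both measures the naive libraries of the genotypes overlapped.

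**Figure D1:**
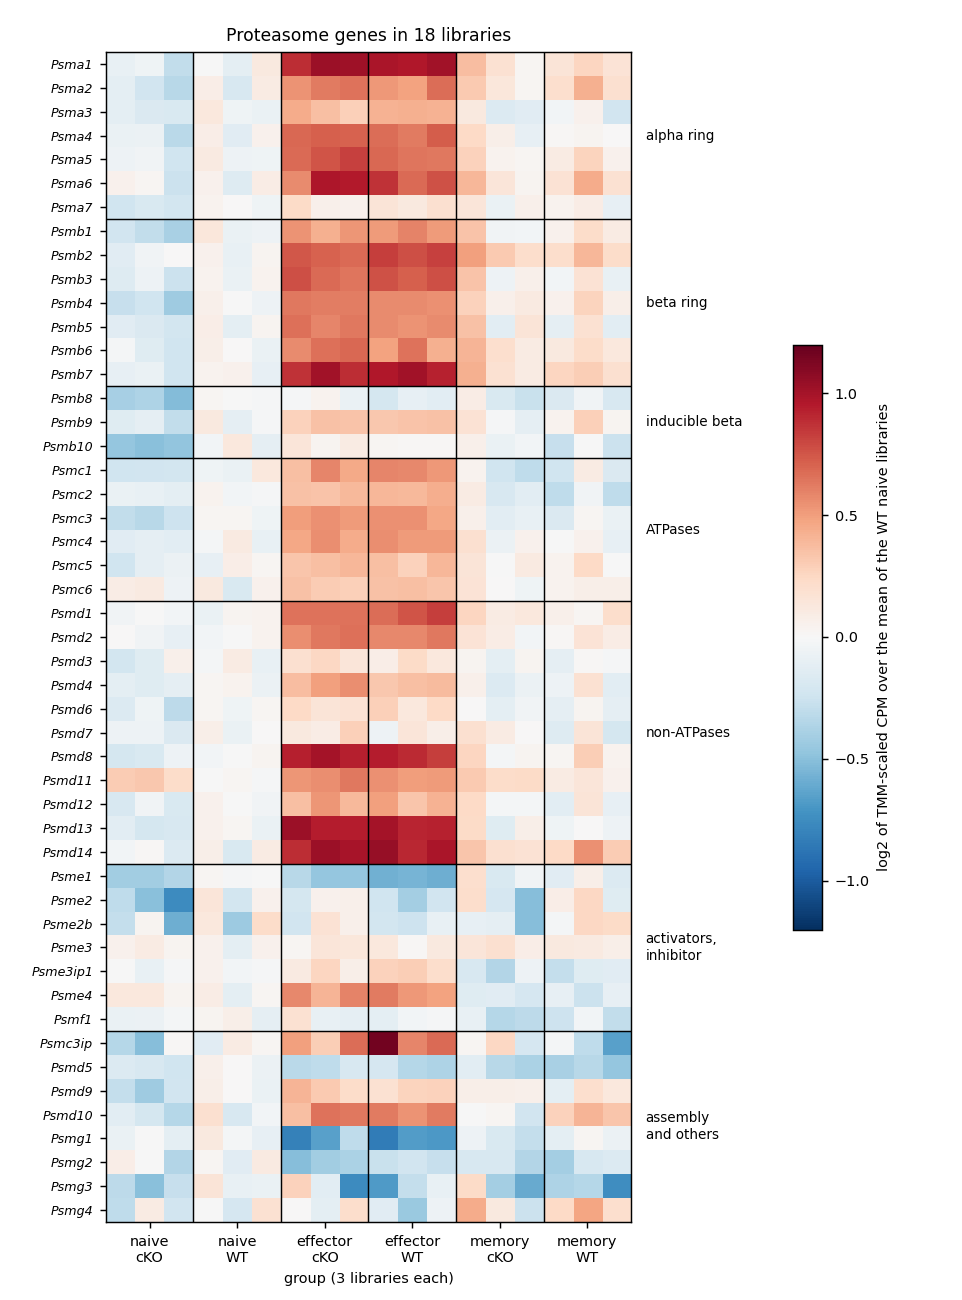
Heat map of the members tested, by role (rows) and library (columns), as the log2 of TMM-scaled CPM over the mean of the naive WT libraries (colour; red is higher, blue lower). Most alpha, constitutive beta and regulatory particle genes are highest in effector libraries of both genotypes, whereas Psme1 is lowest there in WT cells.

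On the build of the deposited tables, GRCm39, Psmb8 lies on chromosome 17 from 34416695 to 34420428 on the plus strand and Psmb9 on chromosome 17 from 34400961 to 34406738 on the minus strand, on either side of the peptide transporter gene Tap1 within the MHC. Psme1 lies on chromosome 14 from 55815580 to 55818986 on the plus strand and Psme2 on chromosome 14 from 55824898 to 55828570 on the minus strand. Psmb10 lies on chromosome 8 from 106662367 to 106665076 on the minus strand, and Psmb5 lies on chromosome 14 from 54851576 to 54855479 on the minus strand. Promoter windows were available for 43 of the 51 members, as 47 entries of the RefSeq table on GRCm38.p6; only the 250 bases before the annotated start were used. The 3 windows shown first belong to the genes whose naive genotype effect held under every setting tried below, Psmb10 and Psmb8 of the inducible beta subunits and Psme1 of the activator. The others belong to Psmb5, the constitutive counterpart of Psmb8, and to Psma1 and Psmd13, an alpha and a non-ATPase gene with large effector differences. Each runs 5′ to 3′ in the direction of the gene, and capitals mark matches to the motifs searched.
Psmb8 promoter, chr17:34197945-34198194, plus strand: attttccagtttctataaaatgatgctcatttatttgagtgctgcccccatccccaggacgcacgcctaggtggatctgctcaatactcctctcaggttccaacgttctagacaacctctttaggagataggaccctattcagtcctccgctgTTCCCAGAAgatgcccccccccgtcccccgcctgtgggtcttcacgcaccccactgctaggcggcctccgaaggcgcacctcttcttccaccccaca
Psmb10 promoter, chr8:105938393-105938642, minus strand: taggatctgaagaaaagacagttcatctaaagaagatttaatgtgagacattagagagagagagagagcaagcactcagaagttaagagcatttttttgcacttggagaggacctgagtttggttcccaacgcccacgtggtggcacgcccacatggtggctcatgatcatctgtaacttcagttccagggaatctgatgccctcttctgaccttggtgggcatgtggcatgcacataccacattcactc
Psme1 promoter, chr14:55578244-55578493, plus strand: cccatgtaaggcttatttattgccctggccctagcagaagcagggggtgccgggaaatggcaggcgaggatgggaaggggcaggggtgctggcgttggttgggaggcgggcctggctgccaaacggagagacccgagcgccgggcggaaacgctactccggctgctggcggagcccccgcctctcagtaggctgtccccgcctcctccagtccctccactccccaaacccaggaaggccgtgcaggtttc
Psmb5 promoter, chr14:54617996-54618245, minus strand: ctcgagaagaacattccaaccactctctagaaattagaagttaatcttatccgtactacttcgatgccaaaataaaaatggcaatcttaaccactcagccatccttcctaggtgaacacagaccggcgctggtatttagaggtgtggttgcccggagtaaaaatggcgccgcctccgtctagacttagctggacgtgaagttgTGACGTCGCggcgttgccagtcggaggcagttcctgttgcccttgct
Psma1 promoter, chr7:114276117-114276366, minus strand: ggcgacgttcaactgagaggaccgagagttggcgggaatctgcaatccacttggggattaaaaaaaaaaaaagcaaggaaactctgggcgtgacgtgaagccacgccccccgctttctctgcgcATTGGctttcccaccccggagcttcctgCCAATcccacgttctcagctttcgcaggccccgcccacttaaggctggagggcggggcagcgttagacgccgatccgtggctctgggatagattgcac
Psmd13 promoter, chr7:140882144-140882393, plus strand: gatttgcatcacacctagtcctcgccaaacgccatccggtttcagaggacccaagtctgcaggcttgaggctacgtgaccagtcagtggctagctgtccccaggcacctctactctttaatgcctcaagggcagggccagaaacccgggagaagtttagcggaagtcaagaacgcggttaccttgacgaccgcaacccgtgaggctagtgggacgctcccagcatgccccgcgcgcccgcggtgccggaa

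The motifs were searched on both strands. The capitals in the Psmb8 window are a match to TTCNNNGAA, the GAS element bound by STAT factors, which begins 97 bases before the start. This motif was in 4.26% of the 47 member windows and in 7.02% of all 32851 windows of the same length. The capitals in the Psmb5 window are a match to TGACNNNGC, the antioxidant-type element bound by NRF1 and NRF2, which begins 47 bases before the start; it was in 10.6% of member windows and 10.2% of all windows. The capitals in the Psma1 window are matches to CCAAT, the box bound by NF-Y, at 126 and 98 bases before the start. CCAAT was in 34.0% of member windows and 33.8% of all windows, and the core of the interferon-stimulated response element, GAAA repeated after a gap of 2 bases, in 6.38% and 2.98%. The Psmb10, Psme1 and Psmd13 windows held none of the 4 motifs, which says only that these letters are not in those windows.

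Most members were higher in effector than in naive cells of both genotypes. Subsets were compared on recovered reads, given as CPM after TMM scaling, with edgeR's quasi-likelihood test and Benjamini-Hochberg adjustment over all genes. In cells labelled cKO, 40 of 49 members were higher and 2 lower in effector cells at an adjusted p under 0.05, where 35.8% of all tested genes were higher and 32.6% lower. In WT cells, 35 were higher and 4 lower, against 35.7% and 31.0% of all tested genes. The median log2 difference of the members was 0.57 in cells labelled cKO, against 0.0092 for all genes, and 0.42 in WT cells, against 0.041 for all genes. With reads divided by totals of reads per gene length, the scaling behind TPM, 28 members were higher and 6 lower in cells labelled cKO. All genes called in either direction then numbered 11551, against 11075 with TMM, and their shares by direction were not counted. That scaling moved the median of all genes by -0.32 in cells labelled cKO and by -0.084 in WT cells, and the members stood 0.56 and 0.37 above it. A change of scaling moves members and other genes nearly alike, so that distance could hardly change. Genes listed as markers of other cells were higher in effector cells too (edgeR). They included all 10 myeloid and all 5 NK cell markers in both genotypes. Their median log2 differences were 5.11 and 5.01 in cells labelled cKO and 4.41 and 7.42 in WT cells. Of 9 B cell markers 7 were higher and 2 lower in cells labelled cKO and 7 and 2 in WT cells. Of 6 erythroid markers 6 and 4 were higher, of 4 CD4 T cell markers 3 and 3, and of 5 gamma-delta T cell markers 3 and 2, in cells labelled cKO and in WT cells. Bulk reads do not show which cells carried these transcripts, CD8 T cells or others. The part of these markers in the member differences was not tested, and their summed levels in each subset are given with the genotype effects.

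The core and the base of the regulatory particle moved together. All 7 tested alpha genes, all 7 constitutive beta genes and all 6 ATPase genes rose in effector cells of both genotypes. With totals per gene length 6 alpha and 4 ATPase genes rose in cells labelled cKO, 6 and 6 in WT cells, and all 7 constitutive beta genes in both. Psma1, an alpha subunit gene, had 126, 138 and 138 CPM in effector libraries labelled cKO, against 63.9, 65.6 and 55.5 in naive libraries labelled cKO. In WT libraries Psma1 had 135, 132 and 137 CPM in effector cells, against 67.9, 62.6 and 73.7 in naive cells. Every effector library was far above every naive library, with log2 differences of 1.12 ± 0.082 (SE; edgeR, adjusted p = 7.61e-12) in cells labelled cKO and 0.98 ± 0.082 (SE; edgeR, adjusted p = 9.39e-11) in WT cells. Psmb7, which encodes the trypsin-like catalytic subunit, had 76.8, 84.8 and 78.1 CPM in effector libraries labelled cKO, against 39.5, 40.0 and 35.7 in naive ones, and 82.2, 84.6 and 80.2 CPM in effector WT libraries, against 43.5, 43.8 and 39.3 in naive WT libraries. The subsets did not overlap in either genotype, and the log2 differences were 1.06 ± 0.080 (SE; edgeR, adjusted p = 1.42e-11) in cells labelled cKO and 0.96 ± 0.080 (SE; edgeR, adjusted p = 8.56e-11) in WT cells. Psmb5 and Psmb6, the other constitutive catalytic genes, rose by 0.80 and 0.77 in cells labelled cKO and by 0.56 and 0.52 in WT cells on the log2 scale.

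Of the 11 non-ATPase genes, 11 rose in effector cells labelled cKO and 9 in WT effector cells. With totals per gene length 7 rose in cells labelled cKO, where Psmd3, Psmd7 and Psmd11 had differences just below 0, not called, and 8 in WT cells. Psmd13, a lid subunit gene, had 124, 117 and 117 CPM in effector libraries labelled cKO, against 55.8, 52.6 and 53.4 in naive ones. In WT cells it had 122, 115 and 116 CPM in effector libraries, against 63.2, 62.0 and 57.7 in naive libraries. These levels did not overlap, with log2 differences of 1.15 ± 0.075 (SE; edgeR, adjusted p = 7.06e-13) in cells labelled cKO and 0.95 ± 0.075 (SE; edgeR, adjusted p = 2.91e-11) in WT cells. Psmd14, the lid's deubiquitinating enzyme, had 125, 137 and 133 CPM in effector libraries labelled cKO, against 65.8, 68.2 and 60.1 in naive ones, and 139, 126 and 133 CPM in effector WT libraries, against 70.6, 59.2 and 72.3 in naive WT libraries. The subsets again stood apart in both genotypes, by 1.03 and 0.98 on the log2 scale.

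Assembly factors and the PA28 genes differed from gene to gene. Among the 8 assembly genes, 3 rose and 2 fell in effector cells labelled cKO, against 35.8% and 32.6% of all genes. In WT effector cells 3 rose and 3 fell, against 35.7% and 31.0%. These counts lie near the shares of all genes and are no result about the assembly genes as a group. The effector mean of the base chaperone gene Psmd10 was 1.72 times the naive mean CPM in cells labelled cKO and 1.51 times in WT cells. For Psmd9 it was 1.54 and 1.18 times, and for Psmc3ip, which is no assembly factor, 1.69 and 1.78 times. Psmg1, which with Psmg2 starts alpha ring assembly, had 10.8, 12.1 and 15.4 CPM in effector libraries labelled cKO, against 18.0, 19.0 and 17.5 in naive ones, and 10.7, 12.0 and 11.8 CPM in effector WT libraries, against 20.6, 18.7 and 17.7 in naive WT libraries. It was lower in every effector library, with log2 differences of -0.51 ± 0.12 (SE; edgeR, adjusted p = 0.000393) in cells labelled cKO and -0.73 ± 0.12 (SE; edgeR, adjusted p = 6.20e-06) in WT cells. Psmg2 fell by 0.36 in cells labelled cKO and by 0.26 in WT cells on that scale. Psmg3 gave log2 differences of 0.22 in cells labelled cKO and -0.33 in WT cells, neither called, at 4.42 CPM in effector libraries labelled cKO and 3.87 in effector WT libraries. Psme1 had 236, 215 and 214 CPM in effector libraries labelled cKO, against 222, 222 and 233 in naive ones, and 198, 201 and 197 CPM in effector WT libraries, against 302, 292 and 294 in naive WT libraries. It overlapped between subsets in cells labelled cKO (-0.024 ± 0.078 (SE; edgeR, adjusted p = 0.801)) and fell without overlap in WT cells (-0.57 ± 0.078 (SE; edgeR, adjusted p = 4.86e-07)). The effector mean of Psme2 was 1.39 times its naive mean in cells labelled cKO and 0.819 times in WT cells. Psme4, the nuclear activator PA200, rose by 0.43 in cells labelled cKO and 0.54 in WT cells on the log2 scale. Of the 3 inducible beta genes, 3 rose in cells labelled cKO and 1, Psmb9, in WT cells, where Psmb8 and Psmb10 gave -0.14 and 0.019 on the log2 scale. In WT cells all 3 constitutive catalytic genes thus had larger log2 differences than the 3 inducible ones.

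**Figure D2:**
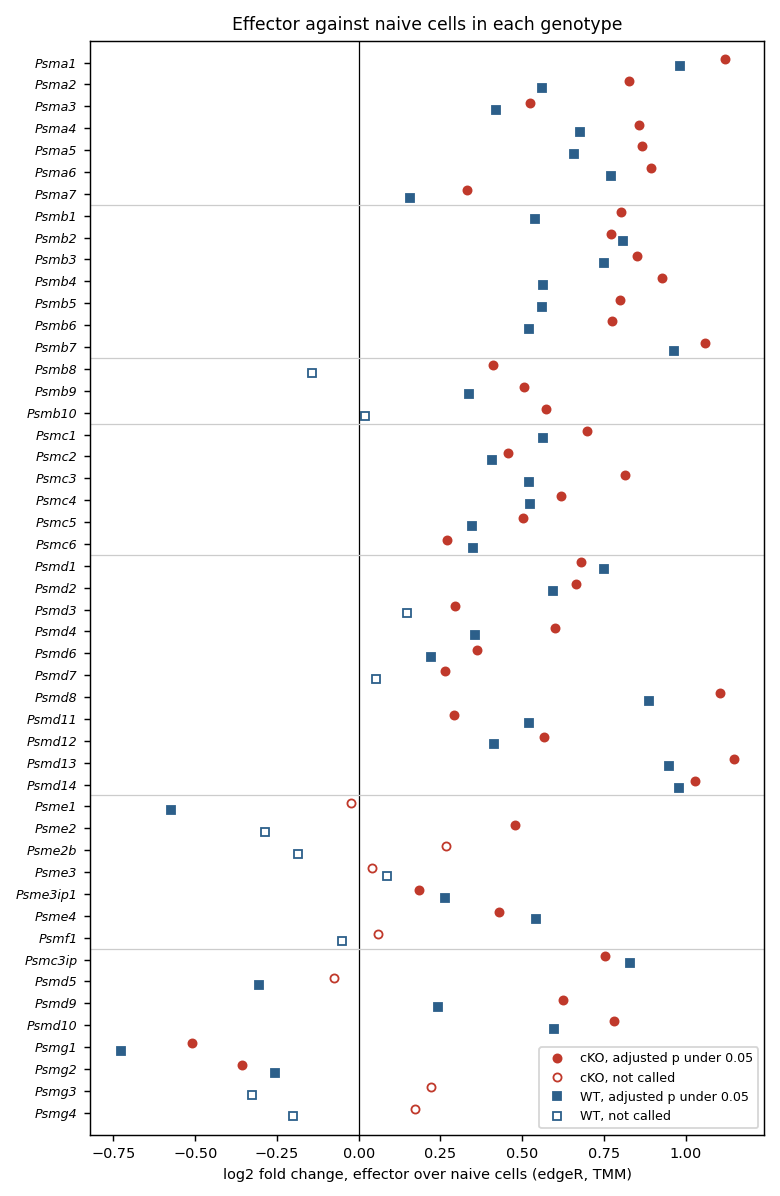
Log2 difference of effector against naive cells (edgeR, TMM scaling) for each member, in cells labelled cKO and in WT cells, grouped by role. Filled points are called at an adjusted p under 0.05 and open ones are not. Alpha, constitutive beta and ATPase genes lie above 0 in both genotypes (with totals per gene length, Psmc6 lies at -0.051 in cells labelled cKO), and Psmg1 and Psmg2 lie below 0.

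Memory cells stood close to naive cells in WT and above them in cells labelled cKO, and the second result depended on the scaling. The sex marker difference of the naive libraries labelled cKO, given above, applies to that second result too. In cells labelled cKO, 25 members were higher and 1 lower in memory than in naive cells (edgeR, adjusted p under 0.05), against 23.9% and 18.6% of all genes. In WT cells 5 were higher and 2 lower, against 22.2% and 13.9% of all genes. With library totals the counts in cells labelled cKO were 12 higher and 4 lower, and with totals per gene length 5 higher and 9 lower. All genes called in either direction numbered 6887 with TMM, 7425 with library totals and 8310 with totals per gene length. Of genes listed as markers of other cells, all 10 myeloid and all 5 NK cell markers were higher in memory than in naive cells of both genotypes. Of 9 B cell markers, 9 were higher in cells labelled cKO and 8 in WT cells. The part of these markers was not tested. The members still higher with totals per gene length were Psmb1, Psmb2, Psmb4, Psmb10 and Psme1. The count also fell to 14 without the memory library labelled cKO 1 and to 15 without the naive library labelled cKO 3. In WT cells it was 1 without memory library 2 and 3 without naive library 2, and the count of lower members was 1 without naive library 1, memory library 1 or memory library 3 and 4 without naive library 2 or memory library 2.

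Psmd14 had 84.8, 77.0 and 75.9 CPM in memory libraries labelled cKO, against 65.8, 68.2 and 60.1 in naive ones, and 79.5, 98.3 and 83.2 CPM in memory WT libraries, against 70.6, 59.2 and 72.3 in naive WT libraries. The subsets did not overlap, with log2 differences of 0.29 ± 0.085 (SE; edgeR, adjusted p = 0.00672) in cells labelled cKO, lost under both totals and without naive library 3 labelled cKO, and 0.37 ± 0.085 (SE; edgeR, adjusted p = 0.00117) in WT cells. Psmd5, a chaperone of the regulatory particle's base, had 37.0, 38.4 and 35.2 CPM in memory WT libraries, against 50.6, 48.5 and 46.1 in naive WT libraries, a fall without overlap (-0.39 ± 0.080 (SE; edgeR, adjusted p = 0.000356)). In cells labelled cKO its levels overlapped, at 44.2, 38.4 and 37.2 CPM in memory libraries, against 43.3, 42.4 and 40.9 in naive ones. Psmd10, the base chaperone also called gankyrin, and Psmb2, a non-catalytic beta subunit gene, gave 0.16 and 0.40 in cells labelled cKO, of which the second was called, and 0.34 and 0.28 in WT cells, both called; without memory WT library 2 neither WT call held, nor that of Psmd10 without naive WT library 2. Psmg4 (0.31), Psmg3 (-0.48) and Psmc3ip (-0.31) were among the largest WT log2 differences of memory against naive cells by size, at few reads, and were not called.

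Against effector cells, memory cells had lower levels of most members. In cells labelled cKO, 2 members were higher and 35 lower in memory cells, against 29.5% and 28.8% of all genes (edgeR, adjusted p under 0.05). In WT cells 5 were higher and 35 lower, against 30.3% and 30.1% of all genes. Psma1 had 88.0, 77.2 and 69.0 CPM in memory libraries labelled cKO and 75.9, 81.5 and 76.2 in memory WT libraries, all below the effector levels given above, with differences of -0.78 and -0.79 on the log2 scale. Psmd13 had 71.3, 55.1 and 63.8 CPM in memory libraries labelled cKO and 59.0, 61.3 and 58.6 in memory WT libraries, lower than in effector cells, with log2 differences of -0.91 and -0.98. The genes that were higher in WT memory cells were the PA28 genes Psme1 (0.50) and Psme2 (0.36), Psme2b (0.34), and the assembly genes Psmg1 (0.68) and Psmg4 (0.51). In cells labelled cKO, Psme1 (0.42) and Psmg1 (0.40) were higher in memory cells. Psmc3ip, not a subunit gene, fell in WT memory cells by 1.14 and gave -0.45, not called, in cells labelled cKO. Without effector WT library 2 the count of higher members in WT cells fell to 2, and without memory WT library 2 to 3. Psme2 lost its call in both cases and without memory WT library 1, and Psmg4 without effector WT library 2. The cell cycle list of 25 genes had 4679 to 4812 summed CPM in effector libraries labelled cKO, against 1502 to 1525 in memory and 1094 to 1140.2 in naive ones. In WT libraries it had 6298 to 6464 in effector cells, against 1269 to 1315 in memory and 656 to 672 in naive cells. The part of cell division in the subset differences was not tested.

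Between genotypes in naive cells, the 4 members with the largest called reductions in libraries labelled cKO were genes inducible by interferon gamma. The genotype effect was tested within each subset with limma on log2(normalised reads + 1), adjusted over all genes tested. In naive cells 1 member was higher and 11 were lower in libraries labelled cKO at an adjusted p under 0.05, against 12.9% and 11.9% of all tested genes. The lower members are 11 of 49, and 37 members were not called. Psmb8, which encodes the inducible chymotrypsin-like subunit, had 2870.1, 2922 and 2636 normalised reads in naive libraries labelled cKO, against 3921, 3807 and 3800.4 in naive WT libraries. Each library labelled cKO lay below each WT library, with a log2 difference of -0.45 ± 0.062 (SE; limma, adjusted p = 0.000305). Psmb10, the inducible trypsin-like subunit gene, had 1425, 1390.1 and 1416 in libraries labelled cKO, against 1963, 2182 and 1864 in WT, again with no overlap, and a difference of -0.50 ± 0.071 (SE; limma, adjusted p = 0.000409). Psmb9, the remaining inducible subunit gene, had 2173, 2236 and 1965 in libraries labelled cKO, against 2665, 2261 and 2432 in WT. Its groups came close without overlapping, and its difference of -0.21 ± 0.077 (SE; limma, adjusted p = 0.0748) was not called.

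Both PA28 genes were lower as well. Psme1 had 3761, 3769 and 3950.4 normalised reads in naive libraries labelled cKO, against 5226, 5029 and 5092 in naive WT libraries. The groups were well apart, with a log2 difference of -0.42 ± 0.057 (SE; limma, adjusted p = 0.000276). Psme2 had 2371, 2061 and 1733 in libraries labelled cKO, against 3298, 2544 and 3078 in WT. It varied more within each group, did not overlap, and differed by -0.54 ± 0.12 (SE; limma, adjusted p = 0.00639). Psme4 overlapped between genotypes, at 1583, 1583 and 1484 in libraries labelled cKO and 1569, 1356 and 1498 in WT (0.074 ± 0.073 (SE; limma, adjusted p = 0.501)). Of the constitutive catalytic genes, Psmb5 had 604, 588 and 569 in libraries labelled cKO, against 716, 618 and 689 in WT, Psmb6 909.7, 839 and 783, against 994, 942 and 892, and Psmb7 669.5, 679 and 606, against 754, 753 and 680.3. Psmb5 and Psmb7 did not overlap between genotypes, Psmb7 only just, whereas Psmb6 did. None of these 3 was called: their log2 differences were -0.20, -0.16 and -0.16 (limma, adjusted p = 0.109, 0.174 and 0.179).

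The remaining lower members were spread over roles. By role, the median log2 difference was -0.45 for inducible beta genes, -0.23 for assembly genes, -0.18 for alpha genes, -0.18 for constitutive beta genes, -0.16 for ATPases, -0.13 for non-ATPases and -0.080 for activators and inhibitors. Psmb4, a beta subunit gene without a catalytic site, had 1532, 1573 and 1382 normalised reads in naive libraries labelled cKO, against 1976, 1864 and 1813 in naive WT libraries, and differed by -0.33 ± 0.071 (SE; limma, adjusted p = 0.00573). Psmd9 had 287, 261 and 299 in libraries labelled cKO, against 374, 355 and 338 in WT, a difference of -0.33 ± 0.10 (SE; limma, adjusted p = 0.0318). Neither gene overlapped between genotypes. Psmb1, another non-catalytic beta gene, the ATPase genes Psmc3 and Psmc1, the alpha gene Psma7 and the chaperone gene Psmd5 gave log2 differences of -0.33, -0.32, -0.25, -0.24 and -0.22. With totals per gene length Psmc1, Psma7 and Psmd5 were no longer called and lay just above 0. The single higher member was Psmd11, a lid subunit gene, with 1421, 1433 and 1334 normalised reads in libraries labelled cKO, against 1165, 1179.9 and 1159.9 in WT. All 3 libraries labelled cKO lay above all WT libraries, by 0.26 ± 0.065 (SE; limma, adjusted p = 0.0145). The call of Psmd11 was lost without the naive library labelled cKO 1, without cKO 2 and without WT 1.

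The direction of most members in naive cells rested on how libraries were scaled. With the deposited size factors 45 of 49 members were lower in libraries labelled cKO in sign, where 51.6% of all genes were, and the member median was -0.17, against -0.012 for all genes. Library totals moved the median of all genes by 0.12 on the log2 scale, and totals of reads per gene length by 0.25. With library totals 36 members were lower in sign, 1 was called higher and 6 lower. With totals per gene length 38 members were higher in sign, 6 were called higher (Psmc6, Psmd1, Psmd2, Psmd11, Psme3 and Psme4) and 3 lower (Psmb8, Psmb10 and Psme1). The median of all genes was then 0.24, and 5592 genes were called in all, against 3454 with the deposited size factors. Shares of all genes by direction were not counted under the totals. Relative to the median of all genes the members stood at -0.16, -0.16 and -0.15 under the 3 scalings. A change of scaling moves all genes of a library nearly alike, so these values could hardly differ and count as 1 result. With totals per gene length Psmb8 differed by -0.20 (limma, adjusted p = 0.0192), Psmb10 by -0.25 (0.0233), Psme1 by -0.17 (0.0448) and Psme2, no longer called, by -0.28 (0.0633). Psmb8, Psmb10 and Psme1 kept their call in all 14 alternative settings. The count of lower members fell to 7 without naive library 1 labelled cKO and without WT library 1.

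Markers of other cells also differed between the naive groups. The 5 gamma-delta T cell markers summed to 44.7 to 51.9 CPM in libraries labelled cKO and 8.90 to 10.8 in WT (3 of 3 tested markers higher, 0 lower). The 4 CD4 T cell markers summed to 14.1 to 17.2 CPM in libraries labelled cKO and 4.52 to 5.87 in WT (3 of 4 tested markers higher, 0 lower), and the 9 B cell markers to 353 to 398 CPM in libraries labelled cKO and 439 to 475 in WT (4 of 7 tested markers higher, 2 lower). The 10 myeloid markers summed to 8.14 to 9.31 CPM in libraries labelled cKO and 5.04 to 5.53 in WT (1 of 3 tested markers higher, 0 lower), and the 5 NK cell markers to 35.7 to 39.0 CPM in libraries labelled cKO and 34.7 to 41.3 in WT (1 of 3 tested markers higher, 1 lower), with Ncr1 and Klra8 at 0 in WT. The 6 erythroid markers summed to 0.323 to 0.997 CPM in libraries labelled cKO, where Hba-a2 and Hbb-bt were among those at 0, and to 0.189 to 11.2 in WT. Of 25 cell cycle genes 20 were higher and none lower in naive libraries labelled cKO, and of 25 interferon-stimulated genes 18 were higher and none lower, with a median log2 difference of 0.73 (limma, adjusted over all genes). On the deposited size factors 45 of 49 members, Psmb8, Psmb10 and Psme1 among them, were lower in sign in these libraries. The part of these differences in the member results was not tested.

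**Figure D3:**
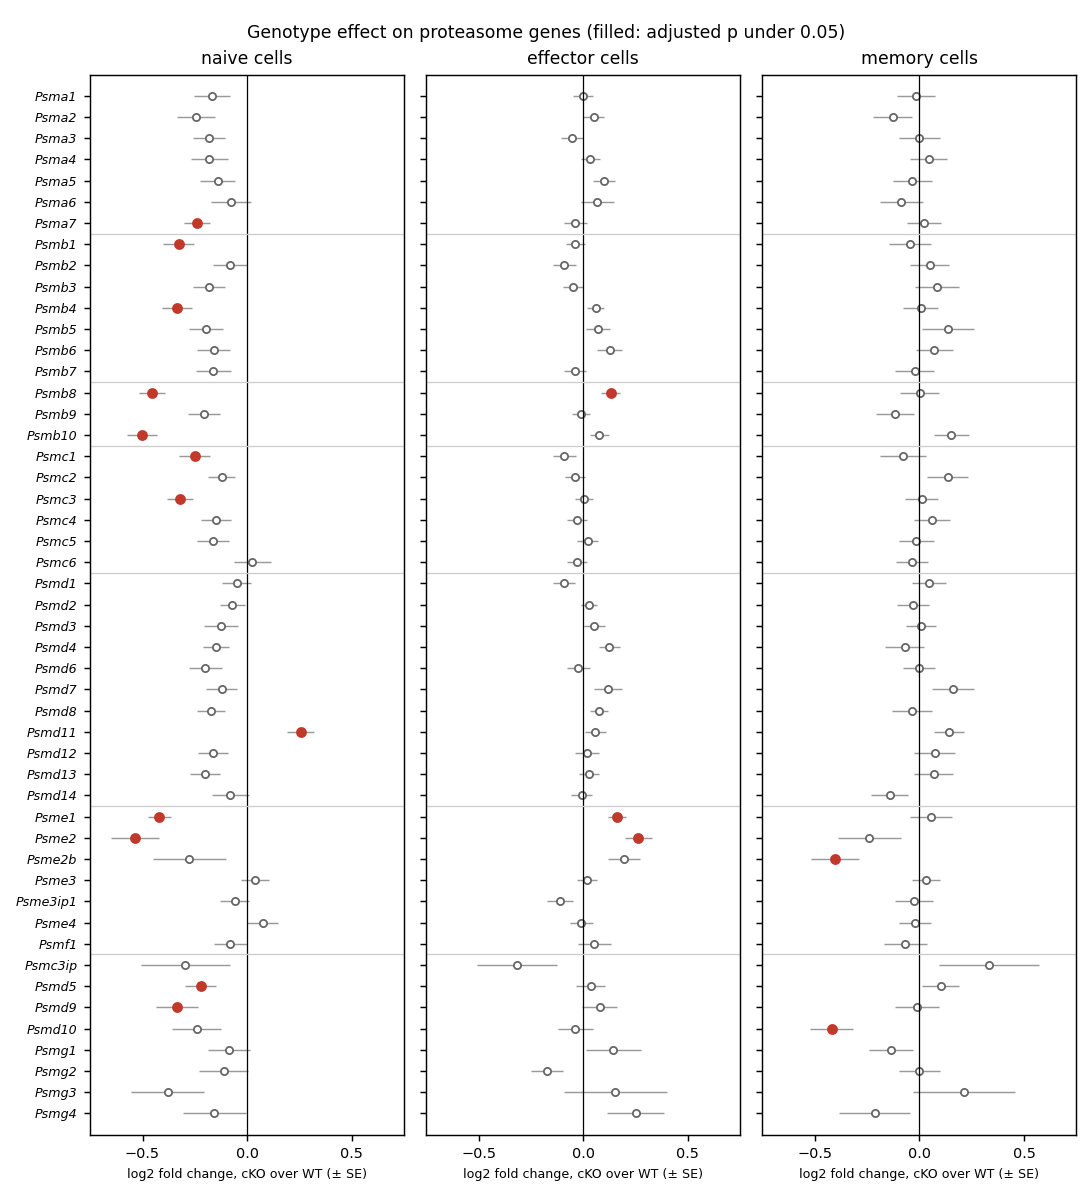
Log2 difference of libraries labelled cKO minus WT libraries (limma, with SE) for each member in naive, effector and memory cells, grouped by role, on the deposited size factors, with called members filled. In naive cells Psme2, Psmb10, Psmb8 and Psme1 lie farthest below 0. In effector and memory cells most members lie close to 0.

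In effector cells few members differed between genotypes, and those called were Psme2, Psme1 and Psmb8. 3 of 49 members were higher in libraries labelled cKO, against 10.7% of all tested genes, and none was lower, against 9.37% (limma). These counts lie below the shares of all genes and are no result about the members as a group. At an unadjusted p under 0.05 there were 6 members in either direction, and edgeR and DESeq2 also called none lower. Psme2 had 2247, 2696 and 2704 normalised reads in effector libraries labelled cKO, against 2191, 1963 and 2207 in effector WT libraries. The groups did not overlap, although the first library labelled cKO lay close to the WT libraries, and the log2 difference was 0.26 ± 0.064 (SE; limma, adjusted p = 0.00629). Psme1 had 3560.4, 3249 and 3234 in libraries labelled cKO, against 2979, 3041 and 2959 in WT, also without overlap, a difference of 0.16 ± 0.044 (SE; limma, adjusted p = 0.0141). Psmb8 had 3331, 3458 and 3178 in libraries labelled cKO, against 2886, 3143 and 3070.4 in WT. Its lowest library labelled cKO lay just above its highest WT library, and it differed by 0.13 ± 0.045 (SE; limma, adjusted p = 0.0464). All 3 calls were lost in a fit of all 18 libraries, with adjusted p up to 0.278 for Psme2, 0.212 for Psme1 and 0.304 for Psmb8 over 14 alternatives. The calls of Psme1 and Psmb8 were also lost without effector library 1 labelled cKO and without WT library 3, and that of Psmb8 without library 2 labelled cKO and without WT library 1; 1 call was left without WT library 3.

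Psmb9 overlapped between the effector groups, with 2601, 2729 and 2719 normalised reads in libraries labelled cKO and 2665, 2712 and 2728 in WT libraries, and Psmb10 had 1938, 1789.6 and 1874 in libraries labelled cKO and 1768, 1773 and 1766 in WT. Psmb10 did not overlap but was not called (0.077 ± 0.046 (SE; limma, adjusted p = 0.270)). The constitutive catalytic genes in effector libraries labelled cKO had 932, 885 and 911 normalised reads for Psmb5, against 866, 858 and 872 in WT libraries, 1225, 1305 and 1323 for Psmb6, against 1142, 1292 and 1103, and 1162, 1279 and 1179 for Psmb7, against 1235, 1278 and 1207. Psme4 had 1919.7, 1711 and 1944 in libraries labelled cKO and 1968, 1844 and 1799 in WT libraries. Of these 4, Psmb5 alone did not overlap between genotypes, and their log2 differences of 0.071, 0.13, -0.040 and -0.010 were not called. The member median was 0.027, against -0.0054 for all genes, and no scaling moved the median of all genes by more than 0.014. All 25 cell cycle genes were lower in effector libraries labelled cKO. Marker sums of other cells in effector cells were 56.3 to 60.0 CPM in libraries labelled cKO and 8.30 to 9.18 in WT for gamma-delta T cells, 87.9 to 93.1 and 12.3 to 14.3 for erythroid cells, and 331 to 351 and 218 to 224 for B cells. For myeloid cells they were 145 to 156 CPM in libraries labelled cKO and 110.2 to 124 in WT, for NK cells 683 to 756 and 631 to 645, and for CD4 T cells 62.9 to 65.8 and 63.3 to 64.8, with no marker at 0. Their part in the effector result was not tested.

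In memory cells 2 of 49 members were lower in libraries labelled cKO, against 7.00% of all tested genes, and none was higher, against 12.1% (limma). At an unadjusted p under 0.05 there were 2 members in either direction, and edgeR and DESeq2 also called none higher. Psmd10 had 337, 346 and 289 normalised reads in memory libraries labelled cKO, against 415, 451 and 431 in memory WT libraries. Every library labelled cKO was lower, with a log2 difference of -0.42 ± 0.10 (SE; limma, adjusted p = 0.0135). Psme2b had 1604, 1602 and 1208 in libraries labelled cKO, against 1717, 2052 and 2037 in WT, where the third library labelled cKO stood lowest, and it differed by -0.40 ± 0.11 (SE; limma, adjusted p = 0.0286). No call was left without memory library 3 labelled cKO, without WT library 2 or without WT library 3. Neither lower call was left with totals per gene length, which moved the median of all genes by 0.093, and with library totals Psmd10 alone was called lower. The lid subunit gene Psmd11 was called higher with both totals, by 0.24 per gene length (limma, adjusted p = 0.0489) and 0.22 with library totals (limma, adjusted p = 0.0480). Psmb8 had 3794, 3178 and 2974 in libraries labelled cKO and 3220.4, 3489 and 3177 in WT, and Psme1 5477, 4218 and 4624 and 4406, 5034 and 4301. Psmb9 had 2567, 2277 and 2122 in libraries labelled cKO and 2379.9, 2796 and 2373 in WT, and Psmb10 1950.02, 1775 and 1829.7 and 1559, 1865 and 1585. The inducible genes and Psme1 thus overlapped between genotypes. Psmb5 had 802, 579 and 703 in libraries labelled cKO and 591, 716 and 581 in WT, Psmb6 1165, 1017 and 942 and 966, 1028 and 968, and Psmb7 909, 776 and 731 and 825, 836 and 785. Psme2 had 3192, 2421 and 1952 in libraries labelled cKO and 2973, 3292 and 2535 in WT, and Psme4 1237, 1261 and 1195 and 1298, 1153 and 1296. All of these overlapped too, and the log2 differences of the 9 genes lay between -0.24 for Psme2 and 0.15 for Psmb10, none called. Memory library 1 labelled cKO was the highest of its group in 41 of 49 members and WT library 2 the highest of its group in 42 of 49. Marker sums in memory cells were 269 to 367 CPM in libraries labelled cKO and 29.7 to 34.0 in WT for myeloid cells, 1425 to 1704 and 771 to 839 for B cells, and 93.1 to 121 and 13.7 to 15.0 for gamma-delta T cells. For NK cells they were 286 to 293 CPM in libraries labelled cKO and 160.2 to 174 in WT, for CD4 T cells 32.8 to 35.6 and 15.2 to 18.3, and for erythroid cells 48.7 to 65.9 and 18.8 to 28.4, with no marker at 0. The part of these cells in the memory result was not tested.

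The genotype effect itself differed between naive and other cells for Psmb8, Psmb10, Psme1 and a few other members. The inducible gene Psmb9 was not called in any interaction, and Psme2 was called only for effector against naive cells. The difference was tested as an interaction in 1 limma model of the 18 libraries, within-subset effects being taken inside each table. Between effector and naive cells 7 members had a higher genotype effect in effector cells and none a lower one (limma, and edgeR alike), against 8.81% and 9.69% of all genes. Psme2 gave 0.80 ± 0.20 (SE; limma, adjusted p = 0.00605), Psmb8 0.58 ± 0.10 (SE; limma, adjusted p = 0.000262), Psmb10 0.58 ± 0.10 (SE; limma, adjusted p = 0.000183) and Psme1 0.58 ± 0.11 (SE; limma, adjusted p = 0.000441). All 4 kept the call in the 17 alternatives, with adjusted p no higher than 0.0318. With totals per gene length 4 members had a higher and 7 a lower effect in effector cells, the higher ones being these 4. All genes called in either direction numbered 4124 with that scaling, against 2902 with the deposited size factors. Between memory and naive cells 6 members had a higher effect in memory cells and none a lower one, against 7.89% and 9.00%. Psmb10 gave 0.66 ± 0.10 (SE; limma, adjusted p = 6.39e-05), Psme1 0.47 ± 0.11 (SE; limma, adjusted p = 0.00372), Psmb8 0.46 ± 0.10 (SE; limma, adjusted p = 0.00377) and Psmb4 0.34 ± 0.10 (SE; limma, adjusted p = 0.0162). The first 3 kept the call in the 17 alternatives, and Psmb4 lost it with totals per gene length and without memory WT library 1. The count was 11 without memory library 2 labelled cKO and 10 without memory WT library 2. Between memory and effector cells limma called no member, as did edgeR, against 8.71% of all genes, with 4 at an unadjusted p under 0.05. The naive libraries enter the comparisons of effector with naive and of memory with naive cells, so these share data.

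**Figure D4:**
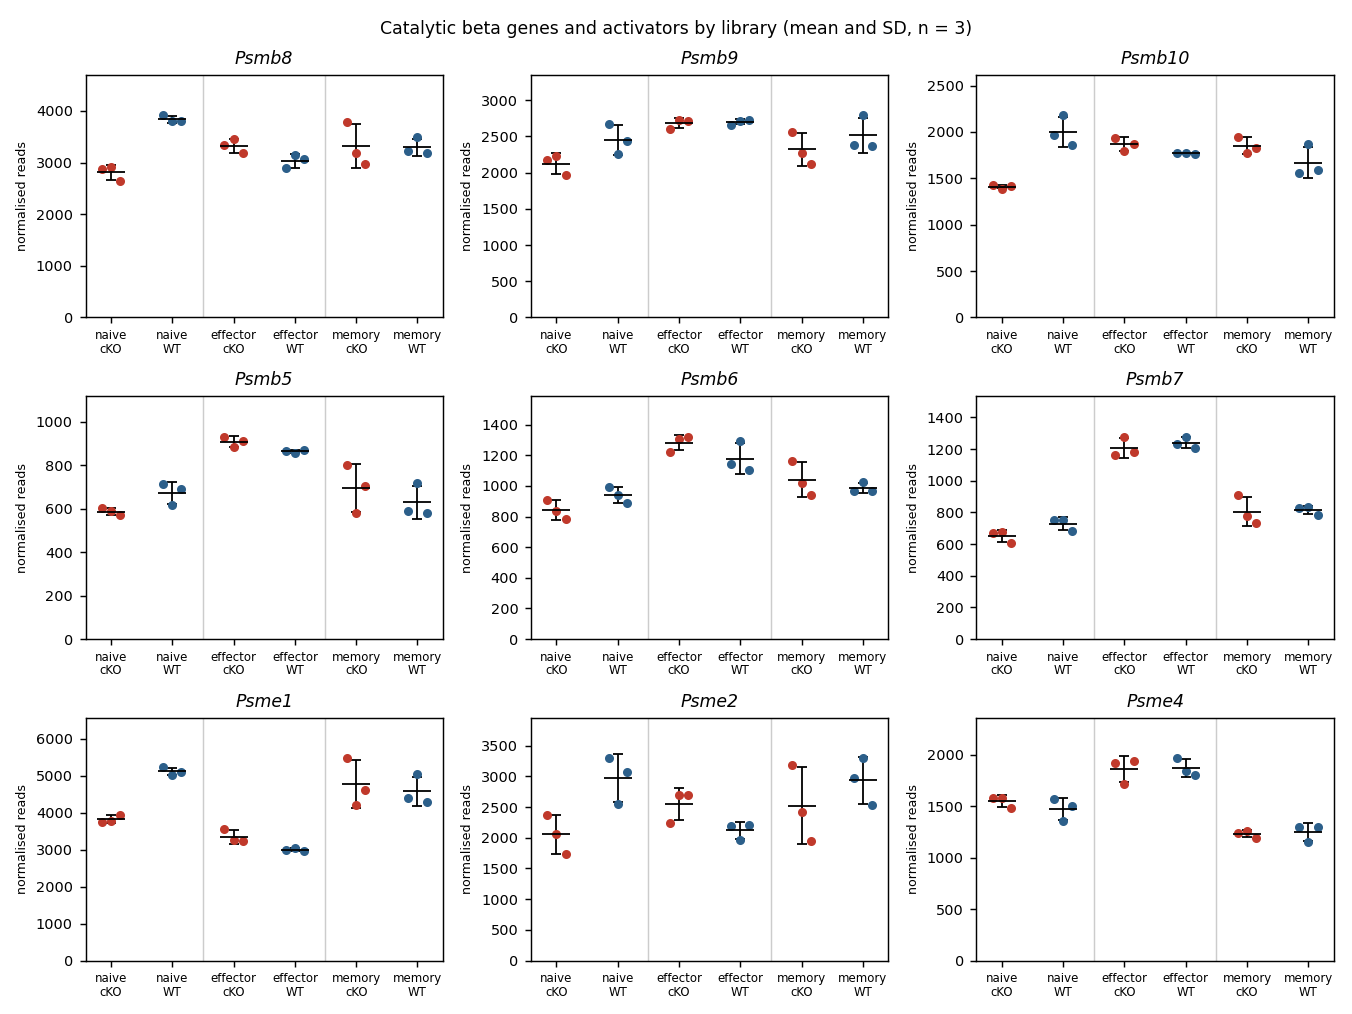
Normalised reads of the inducible and constitutive catalytic genes and of the activator genes Psme1, Psme2 and Psme4 in each library (points), with group mean and SD (n = 3), by subset, libraries labelled cKO left of WT. Size factors were set in each subset's table, so heights compare genotypes within a subset. In naive cells the points of libraries labelled cKO all lie below the WT points for each gene shown except Psmb6 and Psme4, narrowly so for Psmb9, Psmb5 and Psmb7. In memory cells the genotypes overlap for each gene shown.

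A ratio within each library does not depend on how libraries are scaled. The inducible share was taken as the TPM of Psmb8, Psmb9 and Psmb10 over the sum of these and Psmb5, Psmb6 and Psmb7. In naive cells it was 62.7%, 63.8% and 63.6% in libraries labelled cKO, against 66.3%, 68.2% and 66.7% in WT libraries. The groups did not overlap, and the means of 63.4% and 67.0% differed by -3.66 points (exact permutation test, two-sided, p = 0.1, the smallest that 3 against 3 allows; 0.15 after adjustment over 9 comparisons). In effector cells it was 58.2%, 57.8% and 57.4% in libraries labelled cKO, against 57.5%, 57.3% and 58.4% in WT libraries, which overlapped. In memory cells it was 62.5%, 64.8% and 62.8% in libraries labelled cKO, against 64.0%, 64.5% and 64.4% in WT libraries, also overlapping, with a difference of -0.934 points (exact permutation p = 0.400). Between subsets, the effector mean was lower than the naive one, by a difference of -5.55 points in libraries labelled cKO and -9.28 points in WT, without overlap in either. The memory mean lay 5.55 and 6.55 points above the effector one in libraries labelled cKO and in WT. In WT memory minus naive was -2.73 points without overlap, whereas in libraries labelled cKO memory and naive overlapped. None of the 9 comparisons can pass an exact p of 0.05 with 3 libraries a group.

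**Figure D5:**
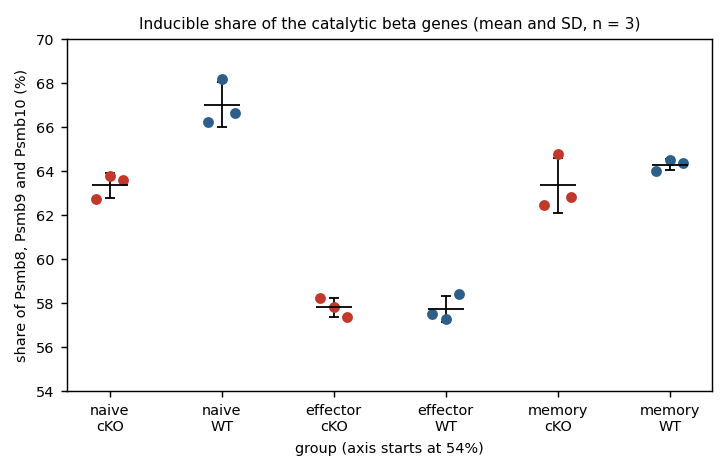
Inducible share of catalytic subunit TPM (percent) in each library, with group means and SD, by subset, libraries labelled cKO left of WT. The axis does not start at 0. Naive libraries labelled cKO lie below naive WT libraries, and effector libraries of both genotypes lie lowest.

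Genes that act with the proteasome outside its own subunits were followed as a list of 31 regulators, ubiquitin genes and shuttle factors, of which 30 were matched and tested. In naive cells 3 were higher and 3 lower in libraries labelled cKO, against 12.9% and 11.9% of all genes, with a median log2 difference of 0.028. With library totals the counts were 7 and 2, and with totals per gene length 18 and 0. The shares of all genes hold for the deposited size factors only. The 2 totals called 3701 and 5592 genes in either direction, against 3454 with the size factors. In effector cells 4 were higher and 1 lower, against 10.7% and 9.37% of all genes, and in memory cells 3 and 1, against 12.1% and 7.00%. The counts on the deposited size factors stand near those shares and are no result about the list. Counts under the totals have no share by direction beside them and are no result about the list either. Nfe2l1 encodes NRF1, the transcription factor that raises proteasome genes when proteasome activity is short. It had 2476, 2565 and 2840.3 normalised reads in naive libraries labelled cKO, against 1549.8, 1619 and 1483 in naive WT libraries, 1302, 1395 and 1302 in effector libraries labelled cKO, against 1152, 1116 and 1126 in WT, and 1584, 1740.3 and 1869.98 in memory libraries labelled cKO, against 1101, 1269 and 1229.8 in WT. Libraries labelled cKO were higher in all 3 subsets, by 0.76 ± 0.071 (SE; limma, adjusted p = 1.73e-05) in naive, 0.24 ± 0.052 (SE; limma, adjusted p = 0.00290) in effector and 0.53 ± 0.086 (SE; limma, adjusted p = 0.00104) in memory cells, and the calls held with both totals. Nfe2l2, which encodes the related factor NRF2, and Ddi2, the protease that activates NRF1, were not called: their log2 differences were 0.16 and 0.038 in naive, 0.10 and 0.068 in effector and 0.15 and 0.066 in memory cells.

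Pomp, the chaperone that matures the core and whose symbol does not match the naming rule, had 911, 855 and 779 normalised reads in naive libraries labelled cKO, against 1172, 966 and 1101 in naive WT libraries, a difference of -0.35 ± 0.091 (SE; limma, adjusted p = 0.0169) that was not called with either of the totals. In effector against naive cells Pomp rose by 1.32 in libraries labelled cKO and 0.93 in WT on the log2 scale (edgeR), like the core genes it serves in sign. Among the other partner genes with the smallest adjusted p, the shuttle factor Ubqln2 (-0.43) was lower in naive libraries labelled cKO. In effector cells Zfand5, which stimulates the proteasome, was higher (0.22) and the proteasome-bound deubiquitinase Uchl5 lower (-0.27). In memory cells Zfand5 was higher (0.43) and Ngly1, which removes glycans from NRF1 and other substrates, lower (-0.28).

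The class I antigen processing list, whose products carry proteasome peptides to the surface, had 14 genes tested in each subset. In naive cells 0 were higher and 6 lower in libraries labelled cKO (limma, median log2 difference -0.25), against 12.9% and 11.9% of all genes. In effector cells 3 were higher and 3 lower, against 10.7% and 9.37%, and in memory cells 0 and 0, against 12.1% and 7.00%. The naive counts changed to 0 higher and 3 lower with library totals and to 6 and 1 with totals per gene length. The shares of all genes hold for the deposited size factors and were not counted by direction under the totals. The chaperone gene Calr (-0.49), the peptide transporter gene Tap2 (-0.42) and the disulfide isomerase gene Pdia3 (-0.30) were lower in naive libraries labelled cKO. Calr stayed lower with totals per gene length, by -0.24 (limma, adjusted p = 0.0163). In effector cells the class I heavy chain genes H2-K1 (0.26) and H2-D1 (0.22) were higher and the chaperone gene Canx lower (-0.29) in libraries labelled cKO.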

How the data were processed

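The tools fastp, featureCounts 2.0.6, HISAT2 2.2.1 and DESeq2 1.42.0 appear in the submitters' processing notes, with GRCm39 as the build; settings, annotation and strand are not given in the sources used here. For each subset the authors deposited a table holding, per gene, signal values of the libraries, the gene's length, a p-value and a log2 fold change (WT over cKO). Within a library those deposited signal values were steps of constant size. Dividing by the step gave whole reads for 100% of values (largest deviation 4.49e-06 reads, tolerance 1e-05). Intervals and p-values cover the spread between libraries only.

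The members and gene lists were chosen with earlier results of these data known. Named were the catalytic and activator genes Psmb5 to Psmb10, Psme1, Psme2 and Psme4, the up to 6 called members per direction and genotype comparison and up to 4 per interaction with the largest log2 difference, the 4 highest and 3 lowest log2 differences per WT subset comparison, and of the partner and class I lists up to 3 called genes with the smallest adjusted p besides Nfe2l1, Nfe2l2, Ddi2 and Pomp. Others were named after their values were seen, and some genes that the rule picks are not reported here. Genotype effects and interactions used limma 3.58.1 (R 4.3.3, intensity trend) on log2(normalised reads + 1), keeping genes that reached 10 normalised reads in 3 or more libraries. Subsets were compared with edgeR 4.0.16 on recovered reads (TMM, 1 fit of 18 libraries). The plan named edgeR for tables of counts; the tables held normalised values, so limma was used for genotype effects and edgeR was an alternative. Shares used exact permutation tests (scipy 1.17.1, Python 3.11.15). Further alternatives were DESeq2 1.42.0, a pseudocount of 0.5, no filter, library totals, totals of reads per gene length (chosen after seeing the data), a fit of all 18 libraries, the replicate block and leaving out each library. Scripts were tested on simulated data. Promoters were RefSeq's, on GRCm38.p6, while gene coordinates are those of the deposited tables.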

Additional observations from a re-analysis of the deposited data

Results flagged for a closer look

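In the interaction tests the genotype effect of these members differed between subsets by a test of the difference itself (limma, interaction terms, adjusted over all genes). Effector minus naive, the log2 difference of effects was 0.80 for Psme2, 0.58 for Psmb8, 0.58 for Psmb10, 0.58 for Psme1, 0.41 for Psmd9, 0.39 for Psmb4 and 0.33 for Psmc3. Psmb4, Psmc3 and Psmd9 lost the call with totals of reads per gene length, Psmc3 and Psmd9 with library totals, and Psmd9 on leaving out naive library 2, effector library 1 or effector library 2 labelled cKO, naive WT library 1 or effector WT library 1. Memory minus naive, it was 0.66 for Psmb10, 0.47 for Psme1, 0.46 for Psmb8, 0.34 for Psmb4, 0.33 for Psmc3 and 0.32 for Psmd5. Psmb4 and Psmc3 lost the call with totals of reads per gene length, and Psmb4 without memory WT library 1. Psmd5 lost the call in 10 of 17 alternatives. Each of these differences is positive, and the naive libraries are shared by both comparisons. The sex marker difference of the naive groups, given above, applies to each of these values.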

How the results depend on the processing

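Of the alternative values of the named genes 829 kept direction and side of the threshold, 69 lost the call in the same direction, 5 gained it and 3 turned sign. These were Psma7 (0.011), Psmc1 (0.0014) and Psmd5 (0.030) in naive cells with totals of reads per gene length, chosen after seeing the data, none still called. Over all members 18 values turned sign with a change of call, 11 losing and 5 gaining it with that scaling and 1 and 1 with library totals; none was called in both directions. That scaling moved 12 of the member counts by over 1.5 times and left 12 within it. In naive cells, members higher and lower in libraries labelled cKO numbered 6 and 3 with that scaling, with 5592 genes called in all, and 6 were lower with library totals. In memory cells they numbered 1 and 0 with that scaling, 1 and 1 with library totals. The interaction of effector with naive cells then had 4 higher and 7 lower (1 lower with library totals), and that of memory with naive cells 3 higher and 1 lower. Effector against naive cells labelled cKO had 6 lower (5 with library totals), memory against naive 5 higher and 9 lower (12 and 4), and memory against effector 4 higher with library totals. WT memory against naive had 8 lower (3 higher and 8 lower with library totals, 5 lower with DESeq2, 4 without a filter, 4 with only the 6 libraries compared). WT effector against naive had 7 lower without a filter, and WT memory against effector 3 higher with DESeq2. A limma fit of all 18 libraries called 0 members higher in effector cells, with 1519 genes in all, and 1 lower in memory cells. With the replicate number as a block, 0 naive members were higher and 7 lower. Correlations of same-numbered deviations lay between -0.14 and 0.067, which cannot settle whether the numbers pair the samples. No other count moved by over 1.5 times. The cause of these changes was not tested.

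Leaving out 1 library at a time gave 0 to 1 naive members higher, 7 to 13 lower and 2261 to 3301 genes in all. It gave 1 to 4 effector members higher, 0 to 3 memory members lower with 1839 to 3310 genes, 4 to 11 higher in the interaction of memory with naive cells and 0 to 1 lower in that of memory with effector cells. For cells labelled cKO, memory against naive had 14 to 29 higher and 1 to 2 lower; for WT, memory against naive had 1 to 5 higher and 1 to 4 lower, and memory against effector 2 to 4 higher. For the inducible share, reads not divided by gene length gave a naive difference of -2.68 points, WT effector minus naive -8.41 and WT memory minus effector 5.89. The pair of Psmb8 and Psmb5 alone gave 1.05 points between genotypes in effector and -2.30 in memory cells, -6.71 for effector minus naive and 6.73 for memory minus effector cells labelled cKO, and -12.1 and 10.1 in WT.

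The 3 libraries of each group limit every comparison. The strand setting of the counting is not given in the sources used here, so overlapping genes on opposite strands cannot be told apart. RNA levels say nothing of protein amounts or activity.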

Other observations

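Some members outside the groups named above had levels of their own. Psme3, the nuclear activator PA28 gamma, averaged 212 ± 3.38 TPM in naive libraries labelled cKO and 174 ± 10.8 in naive WT libraries, 175 ± 8.88 and 174 ± 6.99 in effector cells, and 194 ± 12.3 and 177 ± 7.13 in memory cells. Psmf1, which encodes the inhibitor PI31, averaged 23.5 ± 0.989 and 20.9 ± 1.54 TPM in naive, 19.6 ± 2.16 and 19.0 ± 0.758 in effector and 17.7 ± 0.787 and 17.4 ± 1.04 in memory libraries labelled cKO and WT. Psmd4, a ubiquitin receptor of the regulatory particle, averaged 144 ± 4.10 and 134 ± 7.24 TPM in naive, 175 ± 12.2 and 162 ± 3.55 in effector and 129.9 ± 4.44 and 128 ± 9.53 in memory libraries in the same order of genotypes. TPM carries the scaling by totals per gene length, which moved naive genotype differences by 0.25 on the log2 scale. In normalised reads, naive means of libraries labelled cKO over WT were 1.02 for Psme3, 0.945 for Psmf1 and 0.902 for Psmd4. None of these 3 was called in naive cells on the deposited size factors.

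In the authors' deposited table the log2 fold change of naive cells, given there as WT over cKO, was 0.45 for Psmb8, 0.51 for Psmb10 and 0.42 for Psme1. Within groups, memory library 1 labelled cKO had a median log2 deviation from its group mean of 0.14 over the members and memory WT library 2 one of 0.093, and the other 16 libraries lay within 0.085 of theirs.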
